A study of Mus musculus with 4 samples.

Results

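IGF2BP3 eCLIP-seq clusters at the end of 3′UTRs are described here, that is, clusters whose centre lay on the same strand in the last 150 spliced bases before the annotated transcript end. They were taken from protein-coding genes of GENCODE M21 (mm10) with 1 transcript per gene, the one with the longest CDS, and only from 3′UTRs of at least 300 bases, of which there were 15404 with a median length of 1224 bases. This gave 2206 of 337234 clusters in replicate 1 and 1888 of 216354 clusters in replicate 2. All libraries came from testes of wild-type C57BL/6 mice (C57BL/6J in the protocol label) at an age of 8 weeks, in which germ cells and somatic cells were not separated. RNA was crosslinked to protein by UV light, and each of 2 replicates paired a library precipitated with an IGF2BP3 antibody (IP) with a size-matched input (SMInput), a share of the same lysate kept before precipitation, so that there were 4 samples. A pair of testes was used in the crosslinking protocol, and the replicates are called biological in the paper and in the series text. The series text counts 3 of them where the labels give 2, and nothing says whether they came from different mice.

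IGF2BP3 is an RNA-binding protein of the IGF2BP family, which binds mRNAs through RRM and KH domains and is known for regulating their stability, localization and translation. The end of a 3′UTR carries the poly(A) signal, most often AATAAA or ATTAAA, which directs cleavage and polyadenylation a short distance downstream. In the testis many mRNAs are stored for translation in later spermatids, and shortened 3′UTRs from upstream poly(A) sites are common in germ cells, so that an annotated end need not be the end in use.

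Clusters were found on markers of germ cells and of somatic cells of the testis. The SMInput reads given here were counted only inside clusters of the IP with recovered read numbers, so they depend on where clusters were called and are no measure of the cells present. All 12 germ cell markers had clusters in both replicates, with 9592 SMInput reads in replicate 1 and 17879 in replicate 2, and Ldhc, the lactate dehydrogenase of germ cells, had the most (2060 and 4406). Sertoli cell markers had 2970 and 7151 reads, of which 2123 and 5210 were of Clu, and Leydig cell markers had 2754 and 4406, of which 2536 and 4061 were of Insl3. Markers of peritubular, vessel and blood cells had 236 and 343 reads, of which Acta2 had the most of any gene (109 and 220), and Hbb-bt had no cluster in either replicate. Of the other globin genes, Hba-a1 had 1 cluster and Hbb-bs 2 in replicate 1, all without recovered reads, and neither had one in replicate 2. In such bulk tissue, fewer cells of a type and less RNA per cell cannot be told apart.

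Clusters at 3′UTR ends were significant more often than all clusters, and about as often as clusters in the interior of the same 3′UTRs. A cluster was called significant where its log2(fold change) of IP over SMInput and its −log10(P value) both reached 2. In replicate 1, 421 of the 2206 end clusters were significant (19.1%, 95% Wilson interval 17.5% to 20.8%), against 4.92% of all clusters. In replicate 2, 686 of 1888 were significant (36.3%, 34.2% to 38.5%), against 13.2% of all clusters. The intervals cover counting error only. Both replicates thus had a higher share at 3′UTR ends than over all clusters, most of which lay outside these 3′UTRs. All clusters also held fewer reads, with a median of 4 IP reads in each replicate. With at least 10 recovered IP reads, 42.0% of end clusters and 24.8% of all clusters were significant in replicate 1. In replicate 2 these shares were 51.4% and 27.3%. IP reads also enter the fold change that makes a cluster significant, so this filter does not match clusters by depth.

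The rest of the same 3′UTRs gave the nearer comparison. In the interior, between the first and the last 150 bases, 21.2% of 24238 clusters were significant in replicate 1 and 37.5% of 19847 in replicate 2. Taken within each replicate, end minus interior was −2.13 percentage points in replicate 1 and −1.14 in replicate 2, with an SD of 0.70 between them. This was small beside the shares themselves, and its sign was not the same in every class of 3′UTR length. The first 150 bases after the stop codon had lower shares, 16.0% of 4137 clusters and 27.0% of 3450. Per kilobase, however, they had the most significant clusters and ends, taken over all 150 bases, the fewest. In replicate 1 there were 0.286 in the first 150 bases, 0.233 in the interior and 0.182 at ends, and in replicate 2 0.403, 0.338 and 0.297. The low values at ends came from the last 50 bases, where few clusters had their centre. Bases 51 to 150 held 388 of the 421 significant end clusters in replicate 1 and 639 of the 686 in replicate 2. Per kilobase, these bases had more significant clusters than the interior in both replicates, and more than the first 150 bases in replicate 2 only. The median log2(fold change) was 1.76 at ends and 1.76 in the interior in replicate 1, 2.00 and 2.04 in replicate 2, and 1.44 and 1.65 in the first 150 bases. The middle 50% of end clusters lay between 1.18 and 2.35 in replicate 1 and between 1.39 and 2.79 in replicate 2. With 2 replicates no test between segments was made, since clusters are not replicates.

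Most end clusters rested on few reads. The median end cluster held 7 IP and 4 SMInput reads in replicate 1, and 8 IP and 7 SMInput reads in replicate 2. Significant end clusters had a median of 16 IP reads against 4 SMInput reads in replicate 1 and of 11 against 6 in replicate 2, with a median log2(fold change) of 2.85 in both. Only 1 SMInput read was left to compare with in 58 of the 415 significant end clusters with recovered reads in replicate 1 and 73 of 673 in replicate 2. Among clusters with at least 10 IP reads or the highest listed −log10(P value) of 400, 42.4% of end clusters and 44.5% of interior clusters were significant in replicate 1. In replicate 2 these shares were 52.2% and 53.3%. Here too the filter was on IP reads, which enter the fold change. The SMInput of replicate 2 was the deeper, and its part in the higher share of replicate 2 was not tested.

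End clusters were spread thinly over genes. In replicate 1, 1939 genes had an end cluster and 87.5% of them had a single one. In replicate 2, 1710 genes had an end cluster, 90.6% of them a single one. Significant end clusters were found in 363 genes in replicate 1 and 628 in replicate 2, with at most 5 and 6 in a gene. A few end clusters lay in the ends of several genes at once, 28 in replicate 1 and 18 in replicate 2. The centre of 22 and 20 lay in coding sequence of another transcript.

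Few clusters had their centre in the last bases of the transcript. In replicate 1, 29 clusters had their centre in the last 25 bases and 182 in the 25 bases before, against 482, 513, 513 and 487 in the next bins of 25 bases up to base 150. Replicate 2 had 20 and 124 clusters in the last 2 bins, and then 403, 433, 445 and 463. From base 51 on, the density was that of the bases further upstream, with 1.30 clusters per kilobase between bases 51 and 150 and 1.34 between bases 151 and 300 in replicate 1, and 1.13 and 1.14 in replicate 2. Low counts of centres close to the end are partly built in, since a cluster that stays inside the transcript has its centre some way from the end. Clusters did reach these bases, as 174 end clusters in replicate 1 and 143 in replicate 2 stopped 1 to 25 bases before the end. Across the border of 150 bases little changed, with 487 clusters in bases 126 to 150 and 507 in bases 151 to 175 in replicate 1, and 463 and 405 in replicate 2.

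Clusters centred in the last 50 bases had a higher median log2(fold change) than those between bases 51 and 150. It was 2.18 against 1.76 in replicate 1 and 2.43 against 1.98 in replicate 2. Their significant share was not higher. In replicate 1 it was 33 of 211 clusters (15.6%) against 19.4%, and in replicate 2 47 of 144 (32.6%) against 36.6%. They were also narrower, with a median width of 32 against 50 bases in replicate 1 and 35 against 55 in replicate 2. Read numbers were not compared between these bins, so the higher median cannot be read as stronger binding.

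Few clusters crossed or followed the annotated end. Of the end clusters, 20 in replicate 1 and 11 in replicate 2 ran past it, by at most 47 and 34 bases, and 1 in each stopped exactly on it. Of the 15404 ends, 11890 had no other annotated gene on the same strand in the next 300 bases. There, 9 clusters in replicate 1 and 6 in replicate 2 had their centre in the 150 bases after the end, against 1530 and 1296 in the 150 bases before it. Clipper, the authors' cluster caller, is known to search annotated genes, which was not tested here. These low counts therefore cannot be taken as a measure of the reads past an annotated end.

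Long 3′UTRs had fewer clusters at their ends. In replicate 1, 18.4% of 3331 3′UTRs of 300 to 599 bases had an end cluster, 13.3% of 4260 3′UTRs of 600 to 1199 bases, 11.6% of 4329 of 1200 to 2399 bases and 7.43% of 3484 of at least 2400 bases. In replicate 2, the shares in the same order were 17.7%, 11.7%, 9.52% and 6.03%. The order was thus the same in both replicates. The significant share among these clusters had no shared order, with 20.5%, 23.0%, 16.1% and 12.9% in replicate 1 and 33.6%, 40.3%, 35.4% and 36.4% in replicate 2.

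Whether the annotated end was the outermost of the gene also went with the number of clusters. Where another coding transcript of the gene ran further, on 2041 ends, there were 1.39 end clusters per kilobase in replicate 1 and 1.23 in replicate 2. At the 13363 outermost ends there were 0.888 and 0.753. The significant shares were 19.2% and 19.0% in replicate 1 and 33.1% and 37.2% in replicate 2, with overlapping Wilson intervals in each replicate (15.8% to 23.3% and 17.3% to 20.9%, then 28.5% to 38.0% and 34.8% to 39.6%).

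The 2 replicates shared part of their significant end clusters. Of those of replicate 1, 208 of 421 (49.4%) shared 1 base or more, on 1 strand, with a significant cluster of replicate 2. Of those of replicate 2, 191 of 686 (27.8%) overlapped one of replicate 1. Other end clusters met a significant cluster of the other replicate in 14.3% of 1785 cases in replicate 1 and 7.40% of 1202 in replicate 2. In the interior, the shares of significant clusters that did so were 44.7% and 30.1%. Over 1219 pairs of overlapping clusters with the replicate 1 member at a 3′UTR end, Pearson's r between the log2(fold change) values was 0.645, and the rank correlation by Spearman was 0.588. This describes clusters that share the same 4 libraries and are not independent.

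In both replicates, 158 genes had a significant end cluster, 43.5% of the 363 in replicate 1 and 25.2% of the 628 in replicate 2. The end was often not the only bound place of these mRNAs. A significant cluster in the interior of the 3′UTR was also present in both replicates for 85 of the 158 genes (53.8%), in the CDS for 39 (24.7%) and in the first 150 bases of the 3′UTR for 24 (15.2%). For 57 genes (36.1%), none of these places had a significant cluster in both replicates.

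Significant end clusters of both replicates that overlapped each other formed 148 sites in 147 genes, with a median width of 90.5 bases. At these sites, the median of the smaller log2(fold change) was 2.69 (2.00 to 6.06), and replicate 2 had the higher value at 79 of 148. At 22 sites the strongest cluster held fewer than 10 IP reads in at least 1 replicate. The end cluster had a higher −log10(P value) than every cluster in the CDS and the rest of the 3′UTR of its mRNA, in both replicates, at 53 sites (35.8%). Clusters tied at the highest listed value of 400 do not count as higher.

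The 15 sites with the highest smaller −log10(P value), 1 per gene, lay in 3′UTRs of 305 to 1688 bases, with a median of 440. At 10 of them the end cluster was stronger, by −log10(P value), in both replicates than any cluster in the CDS and the rest of the 3′UTR. Of the values given for a site, the log2(fold change) and −log10(P value) are those of its strongest cluster in each replicate, and read numbers were not recovered at a −log10(P value) of 400.

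Chromatin and transcription were represented by Zfp385a and Hdac11. Zfp385a, a zinc finger protein known as a cofactor of p53, had a site on the minus strand at chr15:103313924-103314069, with 5 significant clusters in replicate 1 and 6 in replicate 2. By −log10(P value) it tied with the Gabarap site given below at the highest listed value, with the higher log2(fold change) of these sites. Its log2(fold change) was 6.58 in replicate 1 and 6.06 in replicate 2, and the −log10(P value) was 400 in both. The interior of its 3′UTR also reached 400 in both replicates, so the −log10(P value) cannot rank end and interior. The log2(fold change) of the strongest interior cluster was lower, 5.44 in replicate 1 and 3.93 in replicate 2. Hdac11, a class IV histone deacetylase, had a site on the plus strand at chr6:91174505-91174613, with its strongest cluster centred 144 bases from the end in replicate 1 and 146 in replicate 2. Its log2(fold change) was 4.80 (131 IP and 8 SMInput reads) in replicate 1 and 5.40 in replicate 2. The strongest interior cluster of Hdac11 was close to it in replicate 1, with a log2(fold change) of 4.74 and a −log10(P value) of 41.1 against 43.0 at the end. In replicate 2 the strongest interior cluster had the higher log2(fold change), 8.67 against 5.40, at a −log10(P value) of 72.9 against 400.

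RNA metabolism was represented by Rexo2 and Atxn2l. Rexo2, an oligoribonuclease that degrades short RNA in mitochondria, has a 3′UTR of only 305 bases, and its site lay on the minus strand at chr9:48468534-48468676. The log2(fold change) was 4.35 in replicate 1, with 193 IP reads against 16 SMInput reads, and 5.01 in replicate 2. Elsewhere in the CDS and 3′UTR of this mRNA the highest −log10(P value) was 8.13 in replicate 1 and 22.7 in replicate 2, against 60.2 and 400 at the end. Atxn2l, a stress granule protein related to ataxin-2, had a site on the minus strand at chr7:126491784-126491910 with its strongest cluster centred close to the annotated end, 26 bases from it in replicate 1 and 37 in replicate 2. Its values were lower, 2.57 (137 IP and 39 SMInput reads) and 2.79 (173 and 90 reads), and another coding transcript of Atxn2l runs 78 bases further. The CDS of Atxn2l had the stronger cluster, with a −log10(P value) of 54.2 against 28.0 in replicate 1 and 74.1 against 65.9 in replicate 2.

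Protein turnover and autophagy included Usp1, March10 and Gabarap. Usp1, a deubiquitinase that acts on FANCD2 and PCNA, had a site on the plus strand at chr4:98935397-98935511. Its log2(fold change) was 4.33 (178 IP and 15 SMInput reads) in replicate 1 and 4.21 (144 and 28 reads) in replicate 2. March10, a RING-type ubiquitin ligase of spermatids, had a site on the minus strand at chr11:105360825-105360946, with 3.70 (123 and 16 reads) and 2.98 (81 and 37 reads). Both sites were stronger in both replicates than the CDS and the rest of the 3′UTR of their mRNAs. Gabarap, a ubiquitin-like protein of the autophagosome membrane, had a site on the plus strand at chr11:69994785-69994848, with values of 5.04 in replicate 1 and 4.81 in replicate 2, both at a −log10(P value) of 400. The rest of its 3′UTR reached 400 as well, with a higher log2(fold change) of 5.50 in the interior in replicate 1 and 5.82 in the first 150 bases in replicate 2. A separate significant site lay closer to its end, at chr11:69994858-69994910, with 6.27 (91 and 2 reads) and 4.05 (83 and 18 reads), and it rests on few SMInput reads in replicate 1.

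Signalling and membrane proteins were Gsk3a, Bsg and St6galnac2. Gsk3a, a kinase needed for sperm motility, had a site on the minus strand at chr7:25228286-25228454, with a log2(fold change) of 4.15 (136 IP and 13 SMInput reads) in replicate 1 and 4.42 in replicate 2. Bsg, or basigin, a partner of monocarboxylate transporters, had the lowest value of the 15 in replicate 1, 2.14 (174 and 67 reads), and 2.69 (95 and 53 reads) in replicate 2, at chr10:79711731-79711942 on the plus strand. The Bsg site ran past the end of the chosen transcript, and other coding transcripts of Bsg run 74 bases further. The St6galnac2 site, on the minus strand at chr11:116677482-116677638, lies at the end of a short gene model of that name, and the same bases hold coding sequence of the full-length gene, a sialyltransferase, so it cannot be read as a 3′UTR end alone. Its log2(fold change) was 2.83 (331 and 79 reads) and 3.24, below the 4.64 and 5.01 of the strongest cluster in the CDS of the short model.

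The remaining sites were in genes of sperm or of little known function. Iqch, a calmodulin-binding IQ motif protein of spermatogenic cells, had a site on the minus strand at chr9:63421473-63421604, with a log2(fold change) of 5.43 (127 IP and 5 SMInput reads) in replicate 1 and 5.90 in replicate 2. Pmis2, a sperm protein needed for migration into the oviduct, had a site on the minus strand at chr7:30670748-30670898, with 4.89 (70 and 4 reads) and 4.81 (86 and 11 reads). Outside the end, Pmis2 had no cluster in its CDS and 3′UTR in replicate 2. 3 genes named by cDNA clones followed. 1700088E04Rik had 5.39 (124 and 5 reads) and 5.07 (112 and 12 reads) at chr15:79134689-79134778 on the minus strand. 1700029P11Rik had 3.81 (99 and 12 reads) and 3.64 (104 and 30 reads) at chr15:81981384-81981531 on the plus strand, and 1700034I23Rik had 3.33 (107 and 18 reads) and 3.79 (92 and 24 reads) at chr3:40900235-40900348 on the minus strand. The interior of 1700034I23Rik had clusters with a higher log2(fold change), 3.71 and 4.79, at a lower −log10(P value). In 1700029P11Rik the interior had the stronger cluster in replicate 1, with a −log10(P value) of 34.3 against 28.7 at the end. In replicate 2 the end was the stronger, with 54.0 against 34.5.

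Over the 15 sites, the log2(fold change) ran from 2.14 to 6.58 in replicate 1 and from 2.69 to 6.06 in replicate 2, and replicate 2 was higher at 8 of them. The last poly(A) signal, AATAAA or ATTAAA, began 21 to 36 bases from the end in 11 of the 15 genes. The last 150 bases of the St6galnac2 model, March10, Bsg and Atxn2l held neither.

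Sequences of 30 bases around the middle of the stretch shared by the strongest clusters of both replicates show how varied these sites were, and are printed for the 10 sites that were stronger than the CDS and the rest of the 3′UTR in both replicates. They were read from the RefSeq GRCm38.p6 genome FASTA (mm10) on the transcript strand from 5′ to 3′, and capitals mark the motifs searched, which are GGAC or ACACA or CATT or CATA or CATC or TGTA or TTTTT, and 12 poly(A) signal hexamers (AATAAA or ATTAAA or AGTAAA or TATAAA or CATAAA or GATAAA or AATATA or AATACA or AATAGA or ACTAAA or AAGAAA or AATGAA). Over all 15 sites, no such sequence held a poly(A) hexamer. TGTA was in 5, CATT, CATA or CATC in 5, GGAC in 2 and TTTTT in 1, and 5 held none of these. The GC content ran from 23.3% to 76.7%.
Rexo2 (chr9:48468594-48468623, minus strand): ctccttTGTAagcttcaggccacacccacc
Usp1 (chr4:98935435-98935464, plus strand): tCATActctttctgcacgatcTGTACATAg
Iqch (chr9:63421551-63421580, minus strand): gcttctcTGTAaattTGTAacTGTAtgagt
Hdac11 (chr6:91174535-91174564, plus strand): GGACATTggggagtggtgacagcacagttt
1700088E04Rik (chr15:79134707-79134736, minus strand): gtctttgccttctTGTAgccttgggcaaat
Gsk3a (chr7:25228375-25228404, minus strand): ccttcttgtcctctgctcccaaggcttcct
March10 (chr11:105360854-105360883, minus strand): cccagtgctgaggccctctgttcaggcctc
Bsg (chr10:79711801-79711830, plus strand): ttatgTTTTTaTTTTTccttcccttctgaa
1700034I23Rik (chr3:40900265-40900294, minus strand): ttcacttaaaactgttacttaaaactaaca
Pmis2 (chr7:30670831-30670860, minus strand): gtcttccacggctgtctaaaagCATCttgg

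Gene lists were read in the same way. Of all 15404 ends, 2.36% had a significant cluster in replicate 1, 4.08% in replicate 2 and 158 (1.03%) in both. Among 24 genes of the histone-to-protamine and spermatid chromatin list with a 3′UTR of at least 300 bases, 11 and 9 had an end cluster, 4 and 4 a significant one, and 3 did so in both replicates. These were Hdac11, Smarca2 and Hdac3. Smarca2, an ATPase of the SWI/SNF remodeler, had a log2(fold change) of 2.13 (−log10(P value) 8.29) in replicate 1 and 2.77 (28.2) in replicate 2, and Hdac3, a class I deacetylase, had 2.76 (3.68) and 2.85 (3.63).

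Regulators of translation and mRNA storage in germ cells had 4 of 33 genes with a significant end cluster in both replicates, 5 in replicate 1 and 7 in replicate 2. They were Piwil2, a PIWI protein of the piRNA pathway, Dazl, a germ cell translation regulator, Ddx4, the germ cell RNA helicase, and Fxr2, an RNA-binding relative of FMRP. Piwil2 had a log2(fold change) of 2.98 (42 IP and 9 SMInput reads) in replicate 1 and 3.34 (45 and 16 reads) in replicate 2. Dazl had 2.21 (49 and 18 reads) and 2.34 (55 and 39 reads), Ddx4 had 2.42 and 2.01, and Fxr2 had 2.45 and 2.00. The values of Ddx4 and Fxr2 in replicate 2 lay just above the threshold.

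The remaining lists had 0 to 3 such genes. Of 43 genes of mRNA 3′ end processing and poly(A) tails, Pan3, a subunit of a poly(A) nuclease, was the only one in both replicates. Its log2(fold change) was 2.25 and 2.68, but its clusters did not overlap. Of 30 genes of ubiquitin and the proteasome there were 3, Usp1, Psma8, the α-subunit of the spermatoproteasome, with 2.45 and 2.71, and Rnf151, a RING finger protein of spermatids, with 4.76 (16 IP reads and 1 SMInput read) and 4.43 (18 and 3 reads). Of 15 meiosis genes there were 2, Mybl1, a transcription factor of pachytene spermatocytes, with 3.12 and 2.90, and Spo11, which makes the meiotic DNA breaks, with 2.50 and 2.02. Spo11 rested on 10 and 9 IP reads. Of 16 genes of the sperm flagellum and energy supply, Cabyr, a calcium-binding protein of the fibrous sheath, had 2.98 (14 and 3 reads) and 2.96 (13 and 6 reads) in overlapping clusters, beside a separate significant end cluster in replicate 2 with 2.29, and of 7 acrosome genes none was significant in both, with 1 significant in replicate 1 and 0 in replicate 2. The lists hold genes expressed in testis, and the share over all ends includes genes that are not, so the shares are not matched for expression.

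Genes central to the study differed in whether their ends were bound. Dot1l, the H3K79 methyltransferase, had 1 end cluster in each replicate, with a log2(fold change) of 2.29 in replicate 1 and 1.95 in replicate 2, below the threshold of 2 in the latter. Ybx2, the germ cell Y-box protein, had 1 end cluster in each, with 1.33 and 1.77, not significant although the −log10(P value) was 23.7 and 53.2. Chd5, a chromatin remodeler, had no end cluster, and its nearest 3′UTR clusters lay 817 and 601 bases from the end. Igf2bp3 itself had 1 end cluster in replicate 1 with a log2(fold change) of 1.50 and a −log10(P value) of 0.806, and none in replicate 2.

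The last question was which sequences the end clusters held. In windows of 50 bases around the cluster centre, on the transcript strand, AATAAA or ATTAAA was found in 14 of 421 significant end clusters (3.33%, 95% Wilson interval 1.99% to 5.50%) and 133 of 1785 others (7.45%, 6.32% to 8.76%) in replicate 1. In replicate 2 it was found in 35 of 686 (95% interval 3.69% to 7.01%) and 60 of 1202 (4.99%, 3.90% to 6.37%). At these settings the difference of replicate 1 was thus not shared by replicate 2. Both replicates had fewer signals in the significant clusters with a log2(fold change) threshold of 1 (−5.45 and −2.18 percentage points). The same held with ends of 100 or 200 bases, 3′UTRs of at least 1000 bases and the longest transcript per gene. It also held with windows of 100 bases and with all 12 hexamers. Only among clusters with at least 10 IP reads did both have more (0.745 and 3.23), so the direction was not the same under every setting. Of all 46212 tiles of 50 bases in the same ends, 29.7% held either signal.

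Since signals crowd into the last 50 bases, where few clusters had their centre, the comparison was also made by place. Of the 15404 tiles between bases 51 and 100, 7.43% held either signal, and 6.29% of those between bases 101 and 150. Clusters centred in bases 51 to 100 held it in 6 of 168 significant (3.57%) and 36 of 827 other clusters (4.35%) in replicate 1 and in 9 of 304 (2.96%) and 11 of 532 (2.07%) in replicate 2. For bases 101 to 150 there were 3 of 220 (1.36%), 23 of 780 (2.95%), 9 of 335 (2.69%) and 12 of 573 (2.09%). All of these shares lay below that of the tiles of their place, without a test, and the interval of the first (1.65% to 7.57%) includes the 7.43% of the tiles. The median GC content of these cluster windows was 42% to 48%, against 40% and 42% of the tiles, and its part in the difference was not tested.

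The 3′UTRs with bound ends had their own signal at the usual place. AATAAA or ATTAAA lay in the last 40 bases of 73.3% of all 15404 ends, of 80.7% of the 363 ends with a significant cluster in replicate 1 (95% Wilson interval 76.3% to 84.4%) and of 83.0% of the 628 in replicate 2 (79.8% to 85.7%). Ends with clusters of which none was significant had 79.8% and 80.6%, and 3′UTRs with clusters elsewhere but not at the end had 77.4% and 77.2%. Of the 158 ends bound in both replicates, 82.9% had a signal there (76.3% to 88.0%).

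The other motifs differed little between significant and other end clusters, apart from CATT, CATA or CATC in replicate 1. GGACT, which fits the consensus of m6A sites, was in 6.18% and 4.82% of windows in replicate 1 and in 4.66% and 4.91% in replicate 2, against 3.40% of all tiles. GGAC, which includes GGACT, was in 13.5% and 11.9%, and in 10.6% and 13.1%, against 9.46%. Matched by place, GGACT was in 5.36% and 6.25% of the significant windows of replicates 1 and 2 at bases 51 to 100, against 3.51% of the tiles, and in 6.36% and 3.58% at bases 101 to 150, against 4.30%. GGAC was in 12.5% and 12.2% at bases 51 to 100, against 10.3%, and in 14.1% and 10.1% at bases 101 to 150, against 11.8%, so neither was above the tiles throughout. CATT, CATA or CATC was in 43.9% and 38.4%, and in 36.2% and 36.1%, against 45.3%. Matched by place, it was in 48.2% and 35.2% of the significant windows of replicates 1 and 2 at bases 51 to 100, against 45.2%. At bases 101 to 150 it was in 40.5% and 35.2%, against 45.1%. ACACA, TGTA and TTTTT are set here against all tiles only, without matching by place. ACACA was in 4.75% and 3.59%, and in 2.62% and 3.91%, against 5.83% of the tiles. TGTA was in 28.7% of the significant windows and 535 of the 1785 others, and in 28.6% and 28.7%, against 31.4%, and TTTTT in 16.6% and 18.9%, and in 144 of 686 and 19.1%, against 16.5%. Significant and other clusters differed in the same direction in both replicates for CATT, CATA or CATC and for TGTA alone, and in replicate 2 those differences were 36.2% against 36.1% and 28.6% against 28.7%.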

How the data were processed

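Both tables of clusters, 1 per replicate, were read as deposited, and the replicates were not pooled. Deposited −log10 values come from the authors' tests of IP against SMInput read numbers per cluster (chi-square with Yates' correction, or Fisher's exact), with 0 as the floor and 400 as the ceiling. Deposited log2 values are fold changes by the authors, IP over SMInput of 1 replicate, scaled by library totals. The authors had trimmed the reads with cutadapt, taken out ribosomal RNA with Bowtie2, aligned to mm10 with STAR, kept 1 read per molecular identifier and run Clipper on read 2.

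Cluster centres were placed in GENCODE M21 basic transcripts, and a centre in several 3′UTRs went to the one with the nearest end. Library totals and read numbers were worked out as the whole numbers that return both listed values, and a single solution was found for 99.977% and 99.996% of clusters between 0 and 400. This and the placement were tested on simulated data. Python 3.11.15, pandas 2.3.3, SciPy 1.17.1 and statsmodels 0.14.6 were used. The genes named are those of the 15 strongest sites, up to 4 per gene list with a significant end cluster in both replicates, and Dot1l, Hdac11, Chd5, Ybx2 and Igf2bp3. The second Gabarap site was named after its values were seen. Clusters and lists were chosen with earlier results of these data known. No test was made between classes of clusters. Alternatives covered thresholds, the end window, 3′UTR length, the transcript, joined clusters, read numbers, overlap, motif window and each replicate alone.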

Additional observations from a re-analysis of the deposited data

How the results depend on the processing

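Of 79 values recomputed under alternatives, 58 moved by less than the spread between replicates (1 SD) or, for counts, by less than 1.5 times, 17 moved further and 4 changed sign. With 2 replicates, leaving 1 out cannot move a mean by 1 SD, so for values judged by SD this alternative shows no stability. Values are means of both replicates. With thresholds of 3, the significant share of end clusters went from 27.7% to 7.88%, their number from 553.5 to 158.5, end minus interior from −1.64 to −0.60 percentage points and the genes significant in both replicates from 158 to 33. With a log2(fold change) of 1, there were 293 such genes. Ends of 100 bases gave 276 significant clusters, a difference of −2.93 and 79 genes, and ends of 200 bases gave 246 genes. 3′UTRs of at least 1000 bases gave 233 clusters, −2.74 and 50 genes. Clusters with at least 10 IP reads, or at the highest listed value, had a share of 47.3%. End minus interior stayed below 0 in both replicates under each setting run, but not within each class of 3′UTR length. In 3′UTRs of 300 to 599 bases, 20.5% and 33.6% of end clusters were significant, against 20.4% and 31.3% in the interior. At 1200 to 2399 bases the shares were 16.1% and 35.4% against 22.4% and 39.1%. In the remaining classes the end was lower in replicate 1 and higher in replicate 2. The median log2(fold change), end minus interior, was −0.02, and became 0.0466 with ends of 100 bases, 0.00413 with 3′UTRs of at least 1000 bases and −0.0659 with at least 10 IP reads, so it has no stable sign. The share of windows with AATAAA or ATTAAA, significant minus other end clusters, was −2.01 percentage points, −5.20 with 3′UTRs of at least 1000 bases (−8.13 and −2.27 in replicates 1 and 2) and 1.99 with at least 10 IP reads (0.745 and 3.23). Windows of 100 bases gave −4.33 and −1.36. With 1 replicate left out in turn, it ran from −4.13 to 0.11, and the genes with a significant end cluster ran from 363 to 628. The causes were not tested beyond what a setting itself changes. 2 settings were added after seeing the data, centres 51 to 150 bases from the end only, and no centres in coding sequence of another transcript, and neither moved a result beyond these limits. Each deposited value already pairs an IP with the SMInput of its own replicate, so no further pairing was made. The results come from no test. The few reads per cluster limit what single sites can show.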
